A study of Homo sapiens with 12 samples.

Results

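The genes described here were 10 plasma membrane amino acid transporters of the solute carrier families, read in WM-266-4 cells, a human melanoma line. They were taken from a list of names: SLC3A2, SLC7A11, SLC7A5, SLC7A6, SLC7A1, SLC1A4, SLC1A5, SLC38A1, SLC38A2 and SLC6A9. They were chosen by name with their levels against the GFP control already known, so their values against GFP, and the counts of members that pass a threshold against GFP, are given as a description and test nothing. The 10 were part of 35579 genes in the files, and all 10 passed the filter on low counts that left 15412 genes for testing.

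All cells carried a stable lentiviral knock-down of the receptor tyrosine kinase TYRO3 and were grown under puromycin. They were transiently transfected with a pEZY-myc-his plasmid and kept without serum overnight before polyadenylated RNA was sequenced. GFP cells received the GFP plasmid by their label, while the study's text calls the control an empty plasmid. WT cells received wild-type TYRO3, and dGS cells received TYRO3 with I449A at the gamma-secretase site. The dADAM cells received TYRO3 with P408A, L409P and G419P at the predicted ADAM cleavage sites. Positions count amino acids of TYRO3. Each group had 3 libraries, 1 from each of 3 experiments. The comparison of each construct with GFP asks what re-expressed TYRO3 changed, and the comparison of WT with dGS and dADAM asks what its cleavage changed. A single knock-down construct was used, so the cells stand for 1 engineered line.

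Cells take up amino acids through membrane carriers that differ in the residues they accept and in what they give in exchange. SLC3A2 (CD98) is the heavy chain that brings light chains of the SLC7 family to the membrane. Among these, SLC7A11 imports cystine in exchange for glutamate and so feeds glutathione synthesis, SLC7A5 takes up leucine and other large neutral amino acids, and SLC7A6 exchanges arginine for neutral amino acids. SLC7A1 carries arginine and lysine, SLC1A4 and SLC1A5 exchange small neutral amino acids and glutamine, SLC38A1 and SLC38A2 take up glutamine and other neutral amino acids with sodium, and SLC6A9 takes up glycine. Many of these genes are known targets of the transcription factor ATF4 in the amino acid response, in which a shortage of amino acids raises ATF4 translation.

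Estimated counts summed to between 4008293 in GFP of experiment 1 and 38184838 in GFP of experiment 2, and the other libraries lay at 18365999 or above. TYRO3 stood at 47.4 to 56.7 CPM (counts scaled to the size of the library) in GFP and at 1181 to 3691 CPM with a construct. It was 3060 to 3691 CPM in experiment 1, 1216 to 1791 CPM in experiment 2 and 1181 to 1651 CPM in experiment 3. The plasmid and the endogenous transcript could not be told apart in these counts. The melanoma markers PMEL (750 to 1316 CPM) and SOX10 (346 to 602 CPM) were present in every library. MITF (95.7 to 324 CPM), DCT (75.1 to 427 CPM) and S100B (27.9 to 70 CPM) were lower. MLANA (6.29 to 27.5 CPM), TYR (6.81 to 16.9 CPM) and TYRP1 (0.512 to 3.24 CPM) were the lowest of the 8 listed. PTPRC of immune cells stayed at or under 0.5 CPM, and CD14 reached the most of 4 immune markers, 1.02 CPM. Of 4 keratinocyte markers, KRT5 and KRT1 had no count and KRT14 reached at most 0.45 CPM, but KRT10 was at 31.1 to 50.4 CPM. The summed level of 8 melanoma markers ran from 2231 to 2675 CPM in GFP, 1325 to 2549 CPM in WT, 1368 to 2238 CPM in dGS and 1371 to 2104 CPM in dADAM. That of 4 fibroblast markers, nearly all from LUM, was 65.1 to 81.4 CPM in GFP and 35.8 to 65.4 CPM with a construct, and the part of either shift in the results was not tested. In a bulk library, fewer cells of a type and less RNA per cell cannot be told apart.

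Levels can be set against each other between genes only after scaling for transcript length, as in the authors' TPM. In GFP, SLC7A5 (467 ± 61.3 TPM, SD, n = 3) and SLC3A2 (385 ± 57.3 TPM) were the most abundant, and their ranges overlapped. Next came SLC1A5 (166 ± 41 TPM) and SLC38A2 (154 ± 18.9 TPM), again with overlapping ranges, then SLC38A1 at 85.7 ± 16.5 TPM. SLC7A1 (57 ± 4.68 TPM), SLC1A4 (45.8 ± 6.76 TPM) and SLC7A11 (42.7 ± 0.701 TPM) each overlapped with the neighbour in that order. SLC7A6 followed at 38.3 ± 3.61 TPM and SLC6A9 was the lowest at 4.29 ± 0.771 TPM. The same genes were at the top with every construct. SLC7A11 stood eighth in GFP and sixth, between SLC38A1 and SLC7A1, in WT, dGS and dADAM, where its range overlapped with both.

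**Figure D1:**
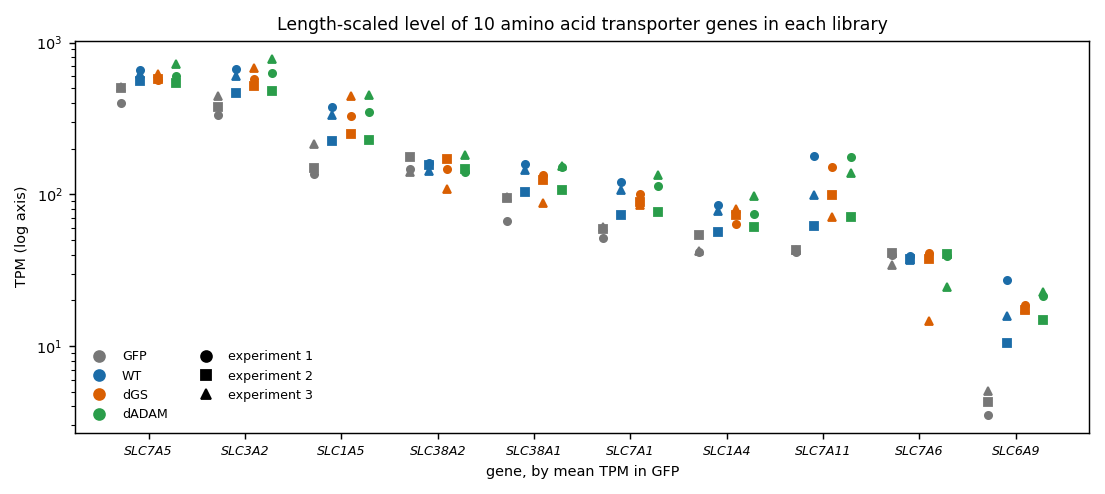
TPM of the 10 transporter genes (log axis) in each library, ordered by the GFP mean, with colour for the group and marker shape for the experiment. SLC7A5 and SLC3A2 lie highest, SLC6A9 lies lowest, and SLC7A11 moves from 42.7 TPM in GFP to means of 107 to 128 TPM with a construct.

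SLC7A11 (ENSG00000151012.13, chr4:138164097-138242349, minus strand of GRCh38), the cystine carrier, was the light chain with the largest difference from GFP. Its CPM in GFP was 301, 260 and 282 in experiments 1, 2 and 3. With WT it was 1093, 362 and 613 CPM, with dGS 940, 592 and 501 CPM, and with dADAM 1055, 431 and 847 CPM, in the same order. All 9 values lay above the 3 GFP values, and the spread between experiments was wide: experiment 1 was the highest in every construct group. The fold over GFP in edgeR was 2.26 with WT (95% interval 1.48 to 3.43), 2.29 with dGS (1.51 to 3.48) and 2.64 with dADAM (1.74 to 4.02). Without GFP of experiment 1, the shallowest library, the log2 fold changes were 0.96, 0.99 and 1.20, against 1.17, 1.20 and 1.40 with it. SLC7A11-201, a protein-coding transcript of 9645 bases, held 98.1% to 99.1% of the gene's TPM in each group mean.

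SLC7A5 (ENSG00000103257.8, chr16:87830023-87869488, minus strand), the leucine carrier, was abundant and differed little between groups. It was at 1250, 1318 and 1433 CPM in GFP, 1752, 1450 and 1658 CPM in WT, 1525, 1480 and 1823 CPM in dGS, and 1579, 1444 and 1882 CPM in dADAM. Each construct group lay above GFP without overlap, yet the folds were only 1.22, 1.21 and 1.23. Its pseudogene copies took few counts: SLC7A5P1 had at most 24.6 estimated counts in a library and SLC7A5P2 had none. The TPM of SLC7A5 was shared between SLC7A5-203 (54.6% ± 2.02 in GFP) and SLC7A5-201 (45.2% ± 1.77), with shares between 37.5% and 62% in the construct group means.

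SLC7A6 (ENSG00000103064.14, chr16:68264516-68301823, plus strand), the third light chain, stayed near its GFP level in experiments 1 and 2. Its level was 95.9, 98.8 and 92.8 CPM in GFP and 90.5, 96.1 and 86.6 CPM in WT. With dGS it was 98.6, 94.7 and 54.5 CPM and with dADAM 89.8, 93.3 and 73.5 CPM, so the low values came from experiment 3. The dGS library of experiment 3 also stood apart in genes with a mean transcript length, weighted by TPM, of over 5000 bases. Their median lay 0.49 below that of shorter ones on the log2 scale (differences of -0.07 to 0.11 in the other libraries). SLC7A6 was among the shorter ones at 3909 bases, though its most abundant transcript, SLC7A6-201, has 6255. The members over 5000 bases were SLC7A11 (9526), SLC7A1 (7270) and SLC38A1 (6700). Without dGS of experiment 3 the log2 fold change of SLC7A6 in dGS was 0.00 in place of -0.23. The part of transcript length in this value was not tested. SLC7A6 overlaps SLC7A6OS on the opposite strand (25.8 to 42.5 CPM), and the sources used here do not say whether the counting used the strand of the reads.

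The heavy chain shared by these 3 light chains, SLC3A2, lies at chr11:62856102-62888875 on the plus strand (ENSG00000168003.16). It had 343, 376 and 456 CPM in GFP and 685, 454 and 582 CPM in WT. In dGS it had 582, 502 and 852 CPM, and in dADAM 613, 473 and 756 CPM. WT of experiment 2, at 454 CPM, lay just inside the GFP range, and no dGS or dADAM library did. The folds were 1.46 (1.03 to 2.09), 1.65 (1.15 to 2.35) and 1.57 (1.1 to 2.24) for WT, dGS and dADAM.

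On the TPM scale SLC7A11 made up 7.84% ± 0.789 of the 3 light chains in GFP. Its share was 14.4% ± 5.68 in WT, 14.7% ± 5.05 in dGS and 16% ± 5.38 in dADAM, with 20.1% to 21.5% in experiment 1 and 9.46% to 13.9% in experiment 2. In every experiment each construct library had a larger SLC7A11 share than its GFP library. SLC3A2 amounted to 0.702 ± 0.061 TPM per TPM of light chain in GFP and 0.758 to 0.82 in the construct group means.

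The cationic carrier SLC7A1 (ENSG00000139514.12, chr13:29509410-29595688, minus strand) gave 286, 268 and 300 CPM in GFP. It gave 549, 329 and 497 CPM in WT, 474, 397 and 452 CPM in dGS, and 517, 353 and 622 CPM in dADAM. No construct library reached down to the GFP range, and the folds were 1.6, 1.54 and 1.74.

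The neutral amino acid exchangers SLC1A5 (ENSG00000105281.12, chr19:46774883-46788594, minus strand) and SLC1A4 (ENSG00000115902.10, chr2:64988477-65023865, plus strand) were both higher with TYRO3. SLC1A5, the glutamine exchanger, was at 248, 227 and 340 CPM in GFP, 590, 336 and 501 CPM in WT, 516, 373 and 679 CPM in dGS, and 532, 347 and 644 CPM in dADAM. The GFP value of experiment 3 was just above the WT value of experiment 2, which was the only overlap. Its folds were 1.74 (1.12 to 2.69), 1.92 (1.24 to 2.98) and 1.86 (1.2 to 2.89). SLC1A4 ran from 122 to 143 CPM in GFP and from 145 to 265 CPM with a construct, without overlap. Its folds were 1.44, 1.56 and 1.59, and its ratios to the GFP library were the lowest in experiment 2, at 1.01 to 1.3.

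The sodium-coupled carriers SLC38A1 (ENSG00000111371.15, chr12:46183063-46270017, minus strand) and SLC38A2 (ENSG00000134294.13, chr12:46358189-46372867, minus strand) are neighbours on chromosome 12 and had unlike values. SLC38A1 was at 338, 386 and 449 CPM in GFP, 651, 406 and 633 CPM in WT, 553, 493 and 493 CPM in dGS, and 599, 444 and 730 CPM in dADAM. Its WT and dADAM libraries of experiment 2 lay inside the GFP range, and the folds were 1.43, 1.31 and 1.51. SLC38A2 was at 373 to 411 CPM in GFP and 313 to 488 CPM with a construct. In 8 of 9 pairs its construct library was below the GFP library of the same experiment, with dADAM of experiment 3 the exception at 1.31 times, and the folds of 0.928, 0.921 and 0.979 had intervals that held 1.

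The glycine carrier SLC6A9 (ENSG00000196517.11, chr1:43991500-44031467, minus strand) was the scarcest member and had the largest fold. GFP libraries held 6.29, 6.5 and 7.9 CPM. WT libraries held 37.2, 15.1 and 24.4 CPM, dGS libraries 27.7, 22.7 and 33.6 CPM, and dADAM libraries 29.8, 20.2 and 36.6 CPM. The lowest construct value was well above the highest GFP value. Folds were 3.48 (2.16 to 5.63) with WT, 3.91 (2.43 to 6.29) with dGS and 4.03 (2.51 to 6.48) with dADAM. The fewest counts behind any of these values were 24, in GFP of experiment 1. SLC6A9-205, of 3130 bases, held 63.5% to 68.2% of the gene's TPM in the group means.

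**Figure D2:**
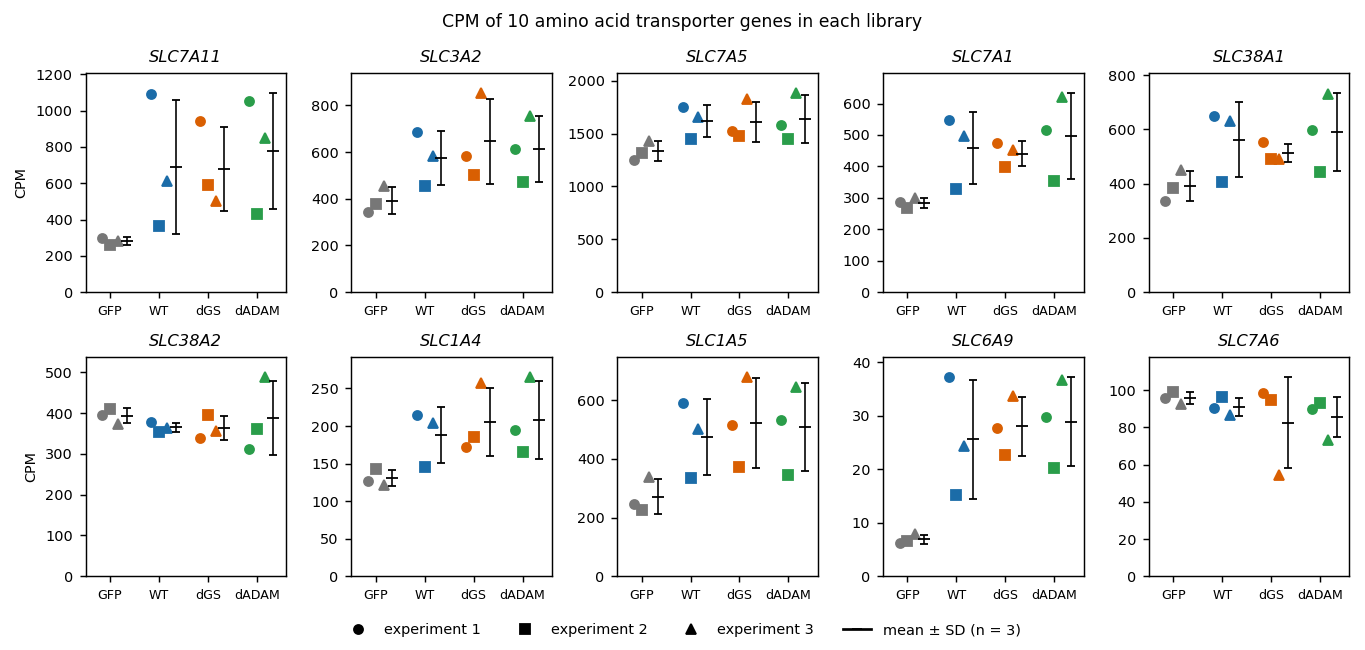
CPM of each transporter in the 12 libraries, with marker shape for the experiment and the mean ± SD of each group (n = 3) in black. SLC7A11, SLC7A1, SLC1A4, SLC6A9 and SLC7A5 show no overlap between GFP and any construct group, while SLC38A2 and SLC7A6 overlap with GFP in all of them.

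Since the dGS library of experiment 3 stood apart, the log2 fold changes of dGS were also taken without it. They were 1.27 for SLC7A11 (1.20 with it), 0.57 for SLC7A1 (0.63), 0.40 for SLC38A1 (0.38) and 1.72 for SLC6A9 (1.97). Those of the members with high values in that library were smaller without it, at 0.44 for SLC3A2 (0.72 with it), 0.45 for SLC1A4 (0.65), 0.65 for SLC1A5 (0.94) and 0.17 for SLC7A5 (0.27). All 8 stayed above 0.

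Across the members, 8 of 10 lay above the GFP library of their own experiment in all 9 pairs, against 12.5% of the genes tested. All 3 libraries lay above all 3 GFP libraries for 5 members with WT, 8 with dGS and 7 with dADAM, against 9.94%, 11% and 12% of the genes tested. These levels chose the members, so nothing is read from the counts. The experiments differed in size: for all 8 the mean ratio was the lowest in experiment 2. TYRO3 with a construct was at 3060 to 3691, 1216 to 1791 and 1181 to 1651 CPM in experiments 1, 2 and 3. The part of the TYRO3 level in these ratios was not tested. SLC6A9 was 4.41 to 5.91 times its GFP library in experiment 1, 2.33 to 3.5 times in experiment 2 and 3.09 to 4.64 times in experiment 3. SLC7A11 was 3.12 to 3.63, 1.4 to 2.28 and 1.78 to 3 times its GFP library, and SLC1A5 was 2.08 to 2.38, 1.48 to 1.65 and 1.48 to 2 times. The comparisons with GFP share the 3 GFP libraries, so their values are not independent of each other.

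**Figure D3:**
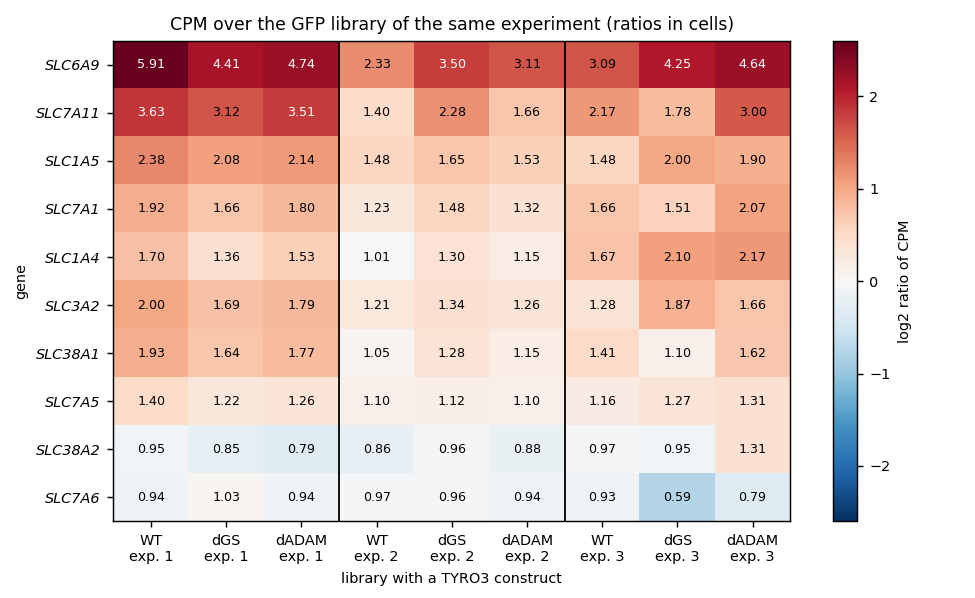
Ratio of the CPM in each construct library to that of the GFP library of the same experiment (numbers in cells; colour, log2 ratio) for the 10 members. The upper 8 rows are above 1 in all 9 columns, with the smallest ratios in the columns of experiment 2, while SLC38A2 and SLC7A6 lie between 0.587 and 1.31, with both of these values in experiment 3.

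In the fit used for calls, edgeR's quasi-likelihood test with a term that sets experiment 1 apart from the others, a gene was called when its fold passed 1.5 and its adjusted p was at most 0.05. The levels that chose the members are the ones read here, so the calls below describe the members and are no evidence about them. With WT no member was called (7 had an unadjusted p under 0.05), against 0.0324% of the genes tested. DESeq2 called 3 members with WT, and 374 of the 15412 genes tested. With dGS only SLC6A9 was called (6 at an unadjusted p under 0.05), against 0.448% of the genes tested. With dADAM SLC6A9 and SLC7A11 were called (8 at an unadjusted p under 0.05), against 1.08%. No count over all genes at that unadjusted p is given for the comparisons with GFP, so the unadjusted counts have no background beside them. With a term for each experiment, which pairs each construct library with its own GFP library, the members called were 4 with WT, 6 with dGS and 6 with dADAM, against 2.29%, 4.56% and 5.09% of the genes tested. SLC7A11, SLC7A1, SLC1A5 and SLC6A9 were called with every construct under these paired terms, and SLC3A2 and SLC1A4 with dGS and dADAM. The difference lay in the error more than in the size: the log2 fold change of SLC1A5 with dADAM was 0.90 ± 0.29 (SE) without the paired terms and 0.87 ± 0.13 with them. Under the paired terms and without GFP of experiment 1, the members called were 2, 2 and 4 for WT, dGS and dADAM. Without WT of experiment 2, SLC6A9 alone was called with WT. Over all genes, leaving out GFP of experiment 1 gave 269 calls with dGS, and leaving out WT of experiment 2 gave 79 with WT.

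**Figure D4:**
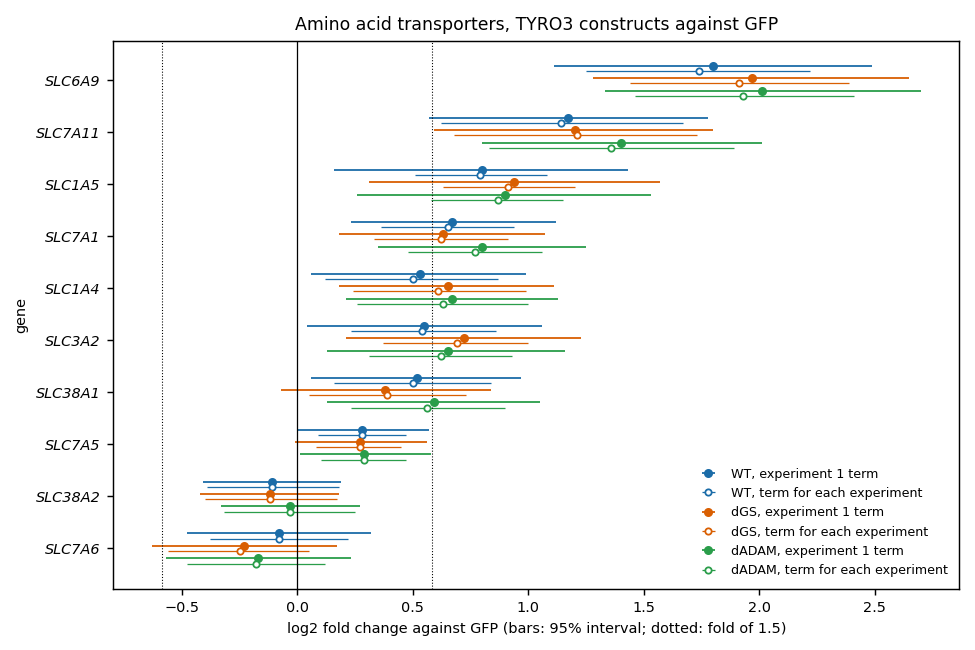
Log2 fold change of each member against GFP with its 95% interval for WT, dGS and dADAM, from the fit with a term for experiment 1 (filled) and the fit with a term for each experiment (open). SLC6A9 and SLC7A11 lie farthest from 0, and the open points have the narrower intervals at nearly the same position.

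Between the TYRO3 constructs, none of the 10 members was called. Against the mean of dGS and dADAM, WT differed by -0.19 to 0.12 on the log2 scale, and dGS differed from dADAM by -0.21 to 0.07. All 20 adjusted p-values of edgeR were 1, no member had an unadjusted p under 0.05, and DESeq2 called none. Over all genes tested, edgeR called 0% in either comparison, with 123 and 127 genes at an unadjusted p under 0.05 and 1 call each by DESeq2. The intervals set what these libraries could show. For WT against both variants, 7 of 10 intervals lay within a fold of 1.5 in either direction, and those of SLC7A11 (-0.64 to 0.39), SLC1A5 (-0.67 to 0.42) and SLC6A9 (-0.73 to 0.36) did not. For dGS against dADAM, 5 of 10 did, and that of SLC7A11 (-0.80 to 0.39) reached the farthest from 0. With a term for each experiment, 9 of 10 intervals were within a fold of 1.5 in both comparisons, and SLC7A11 was the exception (-0.59 to 0.31 and -0.67 to 0.36). SLC7A5 was the most tightly bounded, at -0.25 to 0.25 for WT against the variants and -0.31 to 0.26 for dGS against dADAM without the paired terms.

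**Figure D5:**
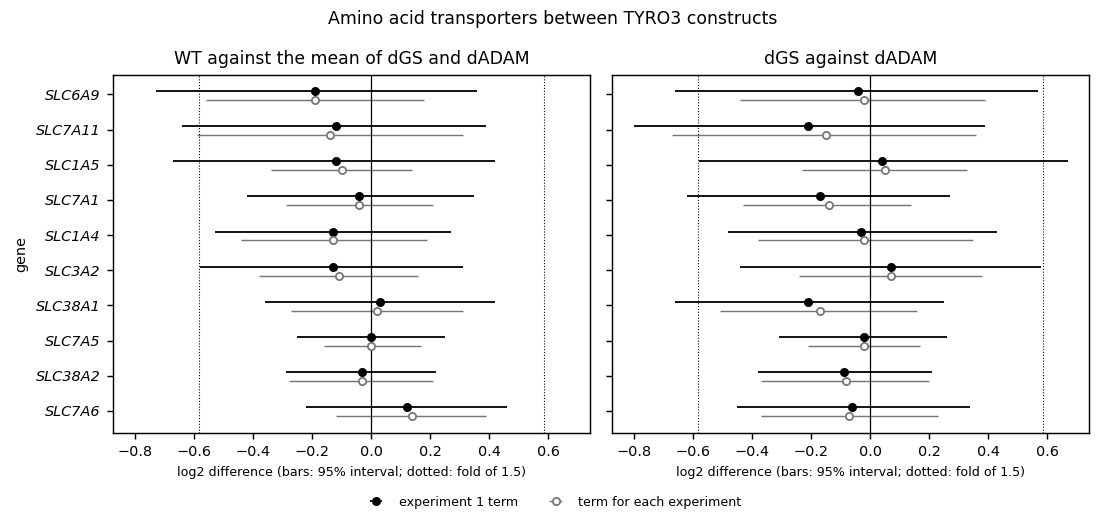
Log2 difference of each member between WT and the mean of dGS and dADAM (left) and between dGS and dADAM (right), with 95% intervals from both fits. Every interval holds 0, and that of SLC7A11 reaches past the dotted line for a fold of 1.5 in both panels and both fits.

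The start regions of members that were higher together are shown for a sequence element that ATF4 complexes are known to bind, the core TGATGNAA, searched on both strands. RefSeq windows of 250 bases before to 50 bases after a start site (GRCh38.p14) were held for 9 members in 15 windows, and not for SLC7A11. The core was found in 5 of these windows, 1 each for 5 members, and in 3.62% of all 35116 windows. Each stretch is given 5′ to 3′ on the strand of the gene, with the core or its reverse complement in capitals.
SLC1A4: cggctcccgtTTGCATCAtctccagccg
SLC3A2: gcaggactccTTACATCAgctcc
SLC38A1: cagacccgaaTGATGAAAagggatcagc
SLC7A1: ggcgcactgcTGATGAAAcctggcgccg
SLC1A5: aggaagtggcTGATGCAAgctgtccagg
These lie at chr2:64989382-64989409, chr11:62881726-62881748, chr12:46266503-46266530 (minus strand), chr13:29595664-29595691 (minus strand) and chr19:46784894-46784921 (minus strand). The first base in capitals was at -7, 37, -4, 7 and -97 from the start site of its window. Only for SLC1A4 and SLC7A1 did the most abundant transcript begin within 2 bases of that start site, since it began at -827 for SLC3A2, -2496 for SLC38A1 and -3780 for SLC1A5. No match was found in the windows of SLC7A5, SLC7A6, SLC38A2 and SLC6A9, which says only that these letters are not there.

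The antioxidant response element, known for its place in the control of SLC7A11 and SLC3A2 by NRF2, was searched as TGACNNNGC on both strands. It was found in windows of SLC3A2, SLC7A1, SLC7A5, SLC7A6 and SLC1A5, 5 of 15 windows, and in 13.3% of all windows. The match of SLC3A2, at chr11:62881652-62881680, is shown because it lies in the same window as the core above.
SLC3A2: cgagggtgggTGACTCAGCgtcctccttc
It began at -37 from the start site and did not overlap the core.

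Of 48 further carriers listed, 32 passed the filter, 15 were too low and SLC66A1 was not found under that symbol. In edgeR none was called with any construct, with 10, 10 and 12 at an unadjusted p under 0.05 for WT, dGS and dADAM. DESeq2 called 0, 2 and 1 of these carriers, against 374, 608 and 673 of the 15412 genes tested. The unadjusted counts have no count over all genes beside them, and nothing is read from them. Their median log2 fold changes were -0.00, 0.00 and 0.01, beside -0.00, 0.01 and -0.00 over all genes tested. These medians pool unlike sublists. The 18 plasma membrane carriers tested had medians of 0.22, 0.18 and 0.29, with 13, 11 and 12 above 0. The 8 mitochondrial carriers tested had medians of -0.23, -0.11 and -0.12, with 8, 6 and 6 below 0, and the 6 lysosomal carriers tested had medians of -0.05, -0.09 and -0.07. No share over all genes stands beside the counts above or below 0. The medians of the 10 members were 0.54, 0.64 and 0.66. Under the terms for each experiment, SLC7A2 and SLC43A1 were called with dGS and dADAM, and both are named because of these calls.

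SLC7A2, a cationic carrier like SLC7A1, was lower. Its CPM was 169, 164 and 184 in GFP, 93.6, 129 and 154 in WT, 105, 117 and 84.4 in dGS, and 91.1, 115 and 113 in dADAM. The adjusted p of edgeR under the paired terms was 0.0194 with dGS and 0.022 with dADAM (log2 fold change -0.74 and -0.70), and 0.0577 and 0.056 without them. With WT the log2 fold change under the paired terms was -0.47 (adjusted p of edgeR 0.116). SLC43A1, a carrier of large neutral amino acids, was at 7.34 to 9.01 CPM in GFP and 9.76 to 24.8 CPM with a construct. Its log2 fold change under the paired terms was 0.92 with dGS and 0.82 with dADAM (adjusted p of edgeR 0.0183 and 0.0259). With WT it was 0.79, and the adjusted p of edgeR, 0.0501, just missed the threshold. Without dGS of experiment 3, and without the paired terms, the value for dGS was 0.58 in place of 1.04.

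Of the 6 lysosomal and 8 mitochondrial carriers tested, none was called in either fit. SLC25A44, a mitochondrial carrier of branched-chain amino acids named after its values were seen, had an adjusted p of 0.047 with dGS and 0.0468 with dADAM in edgeR. It was not called because its folds of 0.697 and 0.728 were under 1.5 in size. Its CPM was 146 to 187 in GFP and 98.3 to 154 with a construct. SLC25A44 was not alone in this. Under the paired terms mitochondrial SLC25A13 had log2 fold changes of -0.42 with dGS and -0.40 with dADAM (adjusted p of edgeR 0.019 and 0.022). Those of lysosomal CTNS were -0.32 and -0.36 (0.0453 and 0.0273), and both genes also missed only the fold.

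Genes of the amino acid response other than these transporters were mostly higher with TYRO3. The list held 26 genes, 9 regulators and 17 further targets, all tested, and it too was drawn up with earlier results known. Its counts against GFP, and the adjusted p-values of its genes against GFP given below, are therefore a description and test nothing. Log2 fold changes were above 0 for 25 of them with WT, 24 with dGS and 25 with dADAM. The share of all genes tested above 0 is not given, so nothing is read from these counts. The medians were 0.95, 1.12 and 1.11 beside the medians of all genes given above. Called in edgeR were 0, 0 and 2 (15, 21 and 19 at an unadjusted p under 0.05), against the 0.0324%, 0.448% and 1.08% of genes tested given above. Under the terms for each experiment 10, 16 and 17 were called, against the 2.29%, 4.56% and 5.09% given above. The unadjusted counts have no count over all genes beside them, and nothing is read from them. Between WT and the variants and between dGS and dADAM none was called in edgeR or at an unadjusted p under 0.05.

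ASNS, the asparagine synthetase and a standard ATF4 target, was at 87, 93.3 and 192 CPM in GFP. It reached 419, 254 and 387 CPM in WT, 346, 304 and 536 CPM in dGS, and 379, 278 and 529 CPM in dADAM. Its log2 fold change of 1.67 with dADAM had an adjusted p of 0.0479 in edgeR, while those of 1.67 with dGS and 1.52 with WT had 0.0577 and 0.119. Under the paired terms ASNS was called with all 3 constructs (adjusted p of edgeR 0.00245, 0.00132 and 0.00118 for WT, dGS and dADAM). The other gene called with dADAM in both fits was STC2, a secreted glycoprotein named after its values were seen (log2 fold change 2.91, adjusted p 0.0443 in edgeR).

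The mRNA of ATF4 itself was at 211 to 283 CPM in GFP. With WT it was at 498, 254 and 453 CPM, with dGS at 389, 386 and 884 CPM and with dADAM at 431, 351 and 761 CPM. Its log2 fold changes under the paired terms were 0.67, 1.07 and 0.98 (adjusted p of edgeR 0.101, 0.0166 and 0.0201). TRIB3, a pseudokinase that restrains ATF4, was called under the same terms with dGS (1.29) and dADAM (1.31). Its 0.98 with WT did not pass (adjusted p of edgeR 0.0486, 0.0434 and 0.149 for dGS, dADAM and WT). CHAC1, which degrades glutathione, was at 3.67 to 8.35 CPM in GFP and 8.4 to 107 CPM with a construct, and its log2 fold changes with dGS and dADAM, 2.67 and 2.64, passed there as well (adjusted p of edgeR 0.0169 and 0.0162). Without dGS of experiment 3, and without the paired terms, the log2 fold changes with dGS were 1.99 for CHAC1 (3.0 with it), 0.65 for ATF4 (1.16), 0.84 for TRIB3 (1.48) and 1.38 for ASNS (1.67). DDIT3, a stress-induced transcription factor, did not pass in either fit (log2 fold changes of 0.48, 0.95 and 0.83). These values do not show that WT differed from the variants: the log2 difference of ATF4 was -0.39 (95% interval -1.12 to 0.35) and that of CHAC1 -0.65 (-2.18 to 0.88).

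Among the genes tested other than the members, the 5 whose profile over the 12 libraries was most like the mean profile of the 10 members were OGT, GTPBP10, OSBPL6, FZD6 and LRIF1, with Pearson's r between 0.98 and 1.00. Profiles were log2 CPM less the mean of the experiment, then scaled to the same spread for each gene. The 12 points share groups and experiments, so r is given as a description. OGT, the enzyme that attaches N-acetylglucosamine to proteins, was at 107 ± 10 CPM (SD, n = 3) in GFP and 164 ± 57, 155 ± 26.8 and 168 ± 30 CPM with WT, dGS and dADAM. Among the members, r with that mean profile was 0.89 to 0.99 for 8 genes, 0.11 for SLC38A2 and -0.35 for SLC7A6. Each member is itself part of that mean, so nothing is read from these values.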

How the data were processed

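Transcript tables of 12 libraries of a human melanoma cell line were read. Per the labels and the study's methods, the authors trimmed the reads with Trimmomatic 0.33 and deposited estimated counts and TPM per transcript from kallisto 0.46.0 (Ensembl 96, GRCh38), before any batch correction. Of 188753 transcripts, 169797 matched GENCODE 29 and were summed to 35579 genes (97.41% to 97.53% of counts). Estimated counts were rounded and tested with edgeR 4.0.16 in R 4.3.3 (quasi-likelihood, TMM, filterByExpr set to 10 counts and a total of 15), with a term for each group and 1 for experiment 1, which the study treated as a batch. P-values were Benjamini-Hochberg adjusted over 15412 genes, and a call needed a fold over 1.5 and an adjusted p of at most 0.05. CPM used TMM-scaled library sizes. The fewest counts for a member in a library were 24.

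The members and the gene lists were chosen with earlier results of these data known. Named were the 10 members, TYRO3, other transporters called in edgeR (up to 8), ATF4, ASNS, TRIB3, DDIT3 and CHAC1, the 5 genes most like the members' mean profile, and transcripts with at least 10% of a member's TPM. SLC7A2, SLC43A1, SLC25A44, SLC25A13, CTNS and STC2 fell outside that rule and were named after their values were seen. The experiment number in the titles pairs the libraries: each of 12 libraries correlated best, on average, with those of its own experiment (r of 0.04 to 0.5 within and -0.35 to 0.05 between experiments, on deviations from group means). Nothing states that cultures within an experiment were separate beyond their transfection. Alternatives were DESeq2 1.42.0, limma 3.58.1 on log2(TPM + 1), other filters, size factors and batch terms, and leaving out libraries. Tested on simulated data for WT against GFP, edgeR recovered 53.5% of 200 genes changed 2-fold (15176 genes) and 84.5% of 200 changed 4-fold (15159 genes). It made 6 and 10 false calls. The simulated counts held no difference between experiments, so these shares need not hold for the real libraries.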

Additional observations from a re-analysis of the deposited data

How the results depend on the processing

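The number of members called depended on the fit. For WT, dGS and dADAM against GFP it was 0, 1 and 2 as reported. It was 4, 6 and 6 with a replicate block (a term for each experiment), and also with that block and RLE size factors. DESeq2 gave 3, 6 and 5, and no filter on low counts gave 4, 6 and 7. Without a batch term and from experiments 2 and 3 alone, dGS and dADAM each had 0, and limma on log2(TPM + 1) gave 0 and 1. Leaving out each library in turn gave 0 to 0 members for WT, 0 to 1 for dGS and 0 to 3 for dADAM. With the replicate block it gave 1 to 5, 2 to 6 and 2 to 7, lowest for WT without WT of experiment 2, for dGS without GFP of experiment 1 or 3 or dGS of experiment 2, and for dADAM without dADAM of experiment 3. Over all genes the calls were 5, 69 and 166 as reported, 353, 703 and 784 with the replicate block, 374, 608 and 673 in DESeq2, 562, 765 and 879 with no filter, 6, 107 and 186 with at least 10 counts in every library, 3, 4 and 5 without a batch term, 1, 1 and 1 from experiments 2 and 3, and 2, 1 and 20 in limma. Leaving out each library in turn gave 1 to 20, 1 to 137 and 1 to 449 calls over all genes. With the replicate block these ranges were 79 to 606, 269 to 777 and 198 to 870. The cause of these differences was not tested. The block changed no call between the TYRO3 constructs. For the 8 members other than SLC38A2 and SLC7A6, all 792 fold changes against GFP under these settings were above 1. For SLC38A2 and SLC7A6, 9 of 198 were. The 8 were set apart by these same levels and the settings refit the same libraries, so nothing is read from the counts. The block with a library left out and with RLE size factors were alternatives chosen after seeing the data. GFP of experiment 1, at 4008293 counts, was the shallowest library and enters every comparison with GFP.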
